A study of Mus musculus with 2 samples.

Results

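The phase II conjugating enzymes are here the UDP-glucuronosyltransferases (Ugt1 and Ugt2 genes), the cytosolic sulfotransferases (Sult genes) and the glutathione transferases of the Gsta, Gstk, Gstm, Gsto, Gstp, Gstt and Gstz genes. They were chosen by gene symbol alone, as every non-control probe whose transcript accession maps to a symbol that begins with one of these stems. The rule took 53 of the 20886 genes on the array, through 72 probes: 12 Ugt, 20 Sult and 21 Gst genes. Another 11 reference genes meet the rule but matched no probe here, among them the protein-coding genes Gsta1, Ugt1a1, Ugt1a9 and Ugt2a2, and they were not analysed.

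These enzymes make lipophilic drugs, steroids, bile acids and products of lipid peroxidation more water-soluble by attaching glucuronic acid, sulfate or glutathione. Ugt enzymes sit in the endoplasmic reticulum and use UDP-glucuronic acid, Sult enzymes are cytosolic and use the activated sulfate PAPS, and most Gst enzymes are cytosolic and use glutathione. Liver is the organ best known for all of them, the intestine and kidney carry their own sets, and adipose tissue is known for an estrogen sulfotransferase, Sult1e1. Transcription of many of the genes is controlled by the receptors PXR (Nr1i2), CAR (Nr1i3) and AhR (Ahr) and by NRF2 (Nfe2l2), which acts through antioxidant response elements.

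The arrays compared a normal diet (ND) with a high-fat diet (HFD), each given for 4 weeks to male wild-type mice of the strain C57BL/6J (C57BL/6J WT in the labels). RNA from 10 livers and from 10 adipose tissues was combined by diet, and 1 Agilent array with 2 colours per tissue held the ND pool in green (Cy3) and the HFD pool in red (Cy5). The sources used here do not say which fat depot was taken, how many animals each pool held, or if the livers and the fat belonged to the same animals. With 1 pool per diet, 1 array per tissue and no dye swap there is no spread between animals and no test, and an effect of the dye on a probe cannot be told apart from the diet.

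Below, a ratio is the log2 of the HFD pool over the ND pool, and a level is the log2 intensity of one pool. The scanner error is the scanner software's own error of a ratio, turned to log2. It covers the reading of the spots and not the mice, and its median was 0.21 on either array. A gene counted as measured if at least 1 probe was above background, by the software's flag, in the ND and in the HFD channel. A 2-fold difference (a ratio of 1 or -1) served as the rule of size. Pooled tissue RNA does not separate fewer cells of a type from less RNA per cell, so these cannot be told apart.

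The labels were checked with lists of marker genes. The summed level of 24 hepatocyte markers was 20.79 (ND) and 21.23 (HFD) on the liver array, and that of 14 adipocyte markers was 19.97 and 19.72 on the adipose array, against 14.22 and 14.34 on the liver array, where Lep and Plin1 were not well above background. The adipose array also carried markers of other organs that differed between its channels. Of 23 measured hepatocyte markers, 20 were at least 2-fold lower in the HFD pool (median -3.98, summed level 18.06 in ND and 15.85 in HFD). All 21 measured markers of small intestine were at least 2-fold higher (median 3.96, summed level 14.65 and 19.67). Of 14 exocrine pancreas markers, 12 were lower (median -1.94, summed level 14.35 and 12.41), as were all 5 measured markers of the male reproductive tract (median -3.19, summed level 16.37 and 12.97, with Lcn8 and Defb21 not well above background). Skeletal muscle markers were lower on both arrays, 8 of 11 at least 2-fold in liver (median -1.43, summed level 15.88 and 14.42) and 5 of 8 in fat (median -1.48, summed level 14.27 and 12.47, with Myh1 and Mylpf not well above background). Adipocyte markers had 1 of 14 higher and 1 lower in fat (median 0.26), and kidney tubule markers none of 4. On the liver array 1 of 24 hepatocyte markers (median 0.32), 1 of 6 measured intestine markers and 1 of 5 kidney markers were higher. There 1 of 12 adipocyte markers was lower, and none of 4 pancreas or 4 reproductive tract markers was past 2-fold. Every value below stands beside these, and their part in the results was not tested.

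The 3 genes at least 2-fold lower in liver are shown first by the 250 bases upstream of their start, from RefSeq (GRCm38.p6), 5′ to 3′, because the liver result turns on them. Capitals mark 2 motifs, GCGTG, the core of the xenobiotic response element bound by AhR, and the TATA motif TATAAA, each also where it lies on the other strand. Gstm1 has 2 annotated starts, and the one farthest downstream is shown.
Gsta2, chr9:78347146-78347395, minus strand: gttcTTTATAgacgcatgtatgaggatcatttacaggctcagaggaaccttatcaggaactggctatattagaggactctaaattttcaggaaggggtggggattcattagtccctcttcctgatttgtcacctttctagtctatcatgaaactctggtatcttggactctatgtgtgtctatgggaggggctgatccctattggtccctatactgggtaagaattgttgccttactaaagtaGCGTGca
Gstm1, chr3:108017819-108018068, minus strand: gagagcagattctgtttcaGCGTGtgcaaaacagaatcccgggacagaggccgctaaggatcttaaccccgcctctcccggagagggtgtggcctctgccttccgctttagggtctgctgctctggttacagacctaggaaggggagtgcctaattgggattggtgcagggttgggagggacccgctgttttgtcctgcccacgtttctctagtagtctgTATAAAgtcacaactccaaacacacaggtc
Gstm3, chr3:107969175-107969424, minus strand: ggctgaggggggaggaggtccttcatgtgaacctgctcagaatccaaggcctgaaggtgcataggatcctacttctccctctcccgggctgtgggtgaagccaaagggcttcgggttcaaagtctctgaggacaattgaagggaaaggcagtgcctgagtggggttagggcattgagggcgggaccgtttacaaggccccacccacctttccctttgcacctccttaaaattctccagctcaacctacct
The GCGTG core starts 7 bases upstream of the start in Gsta2 and 231 bases upstream in the Gstm1 window shown, and Gstm3 holds neither motif. Over all 32851 promoters of this length 28.2% hold GCGTG, against 15.8% of the 57 promoters of 46 member genes, and 12.4% hold TATAAA, against 17.5%. The core of the antioxidant response element, TGACNNNGC, is in 10.2% of all promoters and in 3 of the 57, those of Gsta3, Gstm5 and Gstm7. In Gstm5 the antioxidant and xenobiotic cores overlap. None of these matches says whether a factor binds.

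In the liver, 41 of the 53 genes were measured and 3 of them were at least 2-fold lower in the HFD pool, all glutathione transferases: Gsta2, Gstm1 and Gstm3. That is 7.32% of the measured members, beside 0.579% of all 13640 measured genes. None was at least 2-fold higher, beside 0.491% of all genes. The median ratio of the 41 was -0.02 and that of all genes 0.01, but the members were spread more widely, with quartiles of -0.43 and 0.16 against -0.11 and 0.13. The ratio exceeded 2 scanner errors, in either direction, for 14 members (34.1%), beside 7.83% of all genes.

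Gsta2, an alpha-class enzyme, had a level of 13.37 in the ND pool and 11.49 in the HFD pool. Its ratio was -1.88 (3.68-fold lower, scanner error 0.27, 1 probe), the lowest of the members measured on the liver array. Gsta4, which conjugates hydroxynonenal from oxidised lipids, went from 10.03 to 9.05. The ratio of Gsta4 was -0.98 (1.97-fold lower), just short of the rule, and over its 10 spots on the array the ratios had an SD of 0.06. That ratio became -0.34 with all backgrounds as deposited and -1.13 in the scanner software's own log ratio. Gsta3, the third alpha-class gene with a probe, had levels of 16.20 and 16.21 and a ratio of 0.01. In these values, 2 of the 3 alpha-class genes with a probe lay near or past 2-fold and the other was level. For Gsta4 this depended on its local background. Gsta1 matched no probe here, and whether the Gsta2 probe also reads it was not tested.

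The 7 mu-class genes sit side by side on chromosome 3. Gstm1 had a level of 14.91 in the ND pool and 13.56 in the HFD pool. The ratio of Gstm1 was -1.35 (2.55-fold lower, scanner error 0.24), with its 2 probes at -1.44 and -1.26. Gstm3 went from 11.68 to 10.31, a ratio of -1.37 (2.59-fold lower, scanner error 0.24), with probes at -1.19 and -1.56. The other mu-class genes were closer to 0. The ratio was -0.82 for Gstm4, whose probes disagreed (-1.34 and -0.31), -0.43 for Gstm5 and -0.38 for Gstm6. Gstm2 was at -0.22, with its 3 probes between -0.24 and -0.19, and Gstm7 at 0.02. The order along the chromosome is Gstm5, Gstm7, Gstm6, Gstm3, Gstm2, Gstm1, Gstm4, so Gstm2, which lies between the lower genes Gstm3 and Gstm1, stood apart from its neighbours. Mu-class transcripts are alike in sequence and the probe sequences were not used here, and whether their probes share signal was not tested. The median of the 7 was -0.43, and with median centring in place of loess it was -0.04, where the median of all genes was 0.32.

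The pi class is abundant in male mouse liver. Gstp1 had levels of 14.96 and 14.32 and Gstp2 of 16.34 and 15.78. Their ratios were -0.64 and -0.56, 2.99 and 2.58 times the scanner error but short of 2-fold. The transcripts of Gstp1 and Gstp2 are close copies, so a probe may read both. Gstp3 was at 0.16. The median of the pi class was -0.56 and turned to 0.23 with median centring.

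The remaining Gst genes lay between -0.46 and 0.29. The ratio was -0.46 for Gsto1, an omega-class thiol transferase, and -0.01 for Gsto2. Gstt1, a theta-class enzyme that acts on small halogenated molecules, was at -0.01, Gstt2 at 0.14 and Gstt3 at -0.34. Gstk1, of mitochondria and peroxisomes, was at 0.25 and Gstz1, which also works in tyrosine breakdown, at 0.29. Gstt4 was not well above background. Over the 20 measured Gst genes the median was -0.36, 14 of them below 0. The sign of that median turned with median centring, to 0.19, which is below the 0.32 of all genes.

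**Figure D1:**
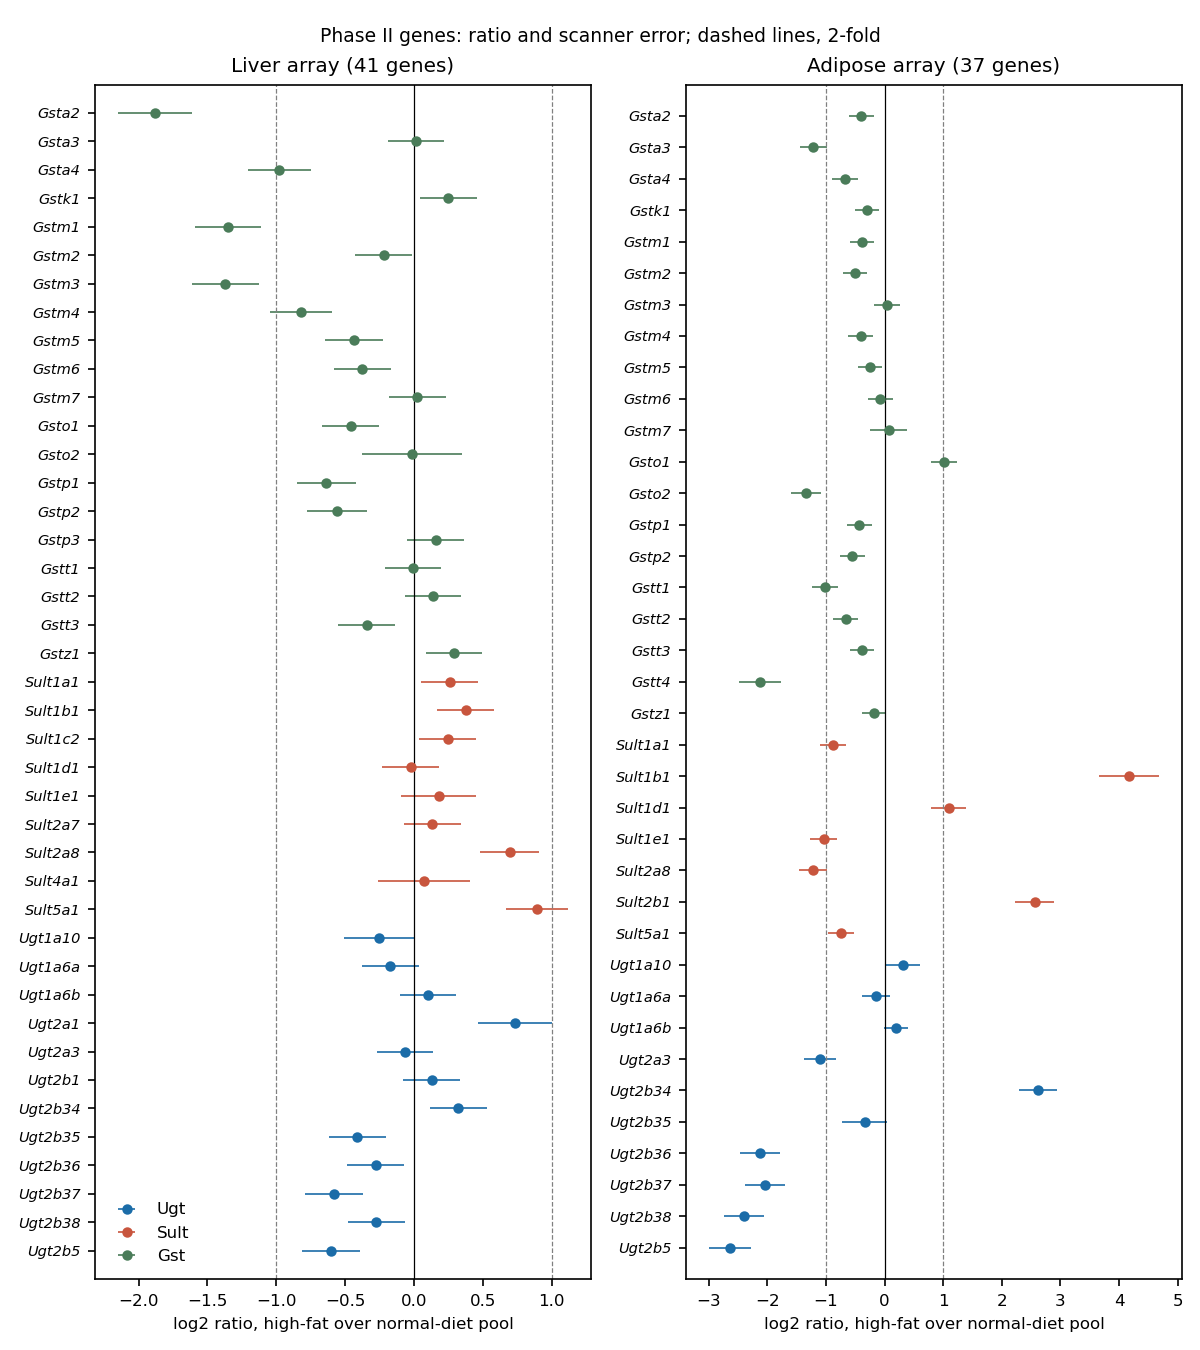
Log2 ratio of the high-fat over the normal-diet pool for each measured phase II gene on the liver array (left, 41 genes) and the adipose array (right, 37 genes), coloured by family. Bars are the scanner error of 1 array, not a spread between mice, and dashed lines mark 2-fold. In liver only Gsta2, Gstm1 and Gstm3 lie past a dashed line, while on the adipose array 5 genes lie past it on the high side and 11 on the low side.

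Of the 20 Sult genes, 9 were measured in liver, and none reached 2-fold. The highest was Sult5a1, a little-studied member, with a level of 9.19 in the ND pool and 10.09 in the HFD pool and a ratio of 0.90 (1.86-fold, scanner error 0.23). Sult2a8, a bile acid sulfotransferase of mouse liver, had 14.53 and 15.23, a ratio of 0.69 (1.62-fold, scanner error 0.21). Both were over 3 times the scanner error, and the value of Sult5a1 depended on its local background, being 0.30 with all backgrounds as deposited.

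The other measured Sult genes lay within 2 scanner errors of 0. Sult1b1, which sulfates thyroid hormones, was at 0.37 and Sult1a1, the phenol sulfotransferase, at 0.26. The ratio was 0.25 for Sult1c2, 0.18 for Sult1e1, 0.13 for Sult2a7, 0.08 for Sult4a1 and -0.02 for Sult1d1. The median of the 9 was 0.25, with 8 above 0, beside 52.3% of all measured genes above 0. With median centring the median was 0.60 and 7 of the 9 were above the median of all genes. The median fell to 0.06 with all backgrounds as deposited, still with 8 above 0, and to 0.09 with no filter on dim probes (20 genes). Sult1c1, Sult2a1 to Sult2a4, Sult2a6, Sult2b1, Sult3a1, Sult3a2, Sult6b1 and Sult6b2 were not well above background in either channel.

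All 12 Ugt genes were measured in liver and none reached 2-fold. The lowest were Ugt2b5, with levels of 15.20 and 14.60 and a ratio of -0.60, and Ugt2b37, with 14.09 and 13.51 and a ratio of -0.58. The ratio was -0.41 for Ugt2b35, -0.28 for Ugt2b36 and -0.27 for Ugt2b38, and it was 0.13 for Ugt2b1 and 0.32 for Ugt2b34. The median of the 7 Ugt2b genes was -0.28 and turned to 0.40 with median centring, where the median of all genes was 0.32, so relative to all genes they were close to level. Ugt2a1, best known from olfactory epithelium, had a level of 7.17 in the ND pool, near the lowest level of a probe above background there (6.19), and 7.90 in the HFD pool. Its ratio of 0.73 became 1.47 in the scanner software's own log ratio, 1.03 with a smaller offset and 0.06 with all backgrounds as deposited. Ugt2a3 was at -0.07.

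The Ugt1a transcripts differ in their first exon and share the rest, so a probe outside the first exon reads several of them. Ugt1a6b had a ratio of 0.10. Its levels of 13.08 and 13.18 are means of 2 probes far apart in brightness. These had ND levels of 16.13 and 10.03, with ratios of 0.08 and 0.13. Ugt1a6a was at -0.17, and the 2 probes assigned to Ugt1a10 disagreed (0.16 and -0.67). Median centring turned the sign of the median of the 12 Ugt genes from -0.21 to 0.44.

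Genes that supply or control the enzymes were examined in the liver too. None of 14 measured genes of cofactor supply reached 2-fold (median -0.14). The lowest were Gclc (-0.62), the catalytic subunit of glutathione synthesis, and Gusb (-0.57), which removes glucuronic acid, and the highest Gpx1 (0.52), a glutathione peroxidase, and Slc35d1 (0.41), a carrier of UDP-sugars into the endoplasmic reticulum. None of 20 other conjugating enzymes reached 2-fold either (median 0.00), with the microsomal glutathione transferase Mgst3 (-0.75) and the epoxide hydrolase Ephx1 (-0.73) lowest and Mgst1 (0.65) and Nat2 (0.43), an arylamine acetyltransferase, highest. Of 13 regulators none reached 2-fold (median 0.15). The lowest was Nr1i2, with levels of 11.61 and 10.84 (-0.76), followed by Hnf4a (-0.27), and the highest were Por (0.50), the electron donor of the cytochromes, and Nr1i3 (0.33). Of 13 NRF2 targets outside the family, 1 was at least 2-fold lower (median -0.18). That was the heme oxygenase gene Hmox1 at -1.29, whose probes disagreed (-2.59 and 0.01). The next lowest was the export pump Abcc4 (-0.63) and the highest Gpx2 (0.30) of the glutathione peroxidases. The 3 lower Gst genes were picked for passing 2-fold, so that they lie beyond the cofactor, conjugation and regulator genes follows from the choice. Hmox1, of the NRF2 targets, passed 2-fold too.

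In adipose tissue, 37 of the 53 genes were measured. At least 2-fold higher in the HFD pool were 5 (13.5%, beside 4.23% of all 14315 measured genes), and at least 2-fold lower were 11 (29.7%, beside 5.13%). The median ratio was -0.41 against -0.01 over all genes, and 23 members (62.2%) exceeded 2 scanner errors, beside 27.4% of all genes. Another 5 genes were well above background in 1 channel only, under 2-fold apart with the dim level taken as read, and 11 in neither channel. With median centring 5 genes were lower instead of 11, and Gstt1 changed sign.

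The largest ratio belonged to Sult1b1, with a level of 7.91 in the ND pool and 12.08 in the HFD pool. Its ratio was 4.17 (18.0-fold higher, scanner error 0.52, 1 probe). Sult2b1, the cholesterol sulfotransferase, which was not well above background on the liver array, went from 9.0 to 11.56, a ratio of 2.56 (5.90-fold higher, scanner error 0.33). Both lay far outside the range of the Gst genes on this array, which ran from -2.13 to 1.01. Sult1d1, which sulfates catecholamines in mice, went from 7.21 to 8.31, a ratio of 1.09 that rests on probes at 1.58 and 0.60.

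Other sulfotransferases were lower. Sult1e1, the estrogen sulfotransferase, had 11.22 in the ND pool and 10.18 in the HFD pool, a ratio of -1.04 (2.06-fold lower, scanner error 0.23). Sult2a8 went from 10.17 to 8.95, a ratio of -1.22 (2.32-fold lower). With median centring both fell short of 2-fold, at -0.08 and -0.35. Sult1a1 (-0.88) and Sult5a1 (-0.75) stayed under the rule. For Sult1c2 and Sult4a1 only the HFD channel was above background. Against the dim ND level as read they were 1.54-fold and 1.45-fold higher, within 2 scanner errors. The measured Sult genes thus lay on both sides, with 3 at least 2-fold higher and 2 lower of 7. Their median, -0.75, turned to 0.26 with median centring and to 0.54 when genes above background in 1 channel only were added (9 genes).

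The Ugt2b genes divided in the same way. Ugt2b34 had a level of 10.01 in the ND pool and 12.63 in the HFD pool, a ratio of 2.61 (6.12-fold higher, scanner error 0.32). Ugt2b5 went from 9.83 to 7.19 (-2.64, 6.25-fold lower) and Ugt2b38 from 10.06 to 7.66 (-2.39, 5.26-fold lower). Ugt2b36 went from 9.04 to 6.92 (-2.12, 4.35-fold lower) and Ugt2b37 from 8.59 to 6.55 (-2.04, 4.12-fold lower), with scanner errors between 0.34 and 0.36 for the 4 lower genes. The HFD levels of Ugt2b36 and Ugt2b37 were near the lowest level of a probe above background in that channel (5.66). Across the alternatives run, median centring included, the ratios of these 4 genes lay between -3.17 and -1.60. Ugt2b35 was at -0.33. Ugt2b1 was above background in the ND channel only, 1.59-fold lower with the dim HFD level as read (scanner error 0.73).

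Ugt2a3 went from 7.91 to 6.81 (-1.10, 2.15-fold lower), or -0.88 with median centring. Ugt2a1, above background in the ND channel only, was 1.28-fold lower with the dim HFD level as read, within 1 scanner error. The Ugt1a genes lay within 2 scanner errors of 0, at 0.31 for Ugt1a10 (1.33 in the scanner software's own log ratio), 0.19 for Ugt1a6b and -0.15 for Ugt1a6a. Of the Ugt genes measured in fat, those past 2-fold were therefore all of the Ugt2 group.

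**Figure D2:**
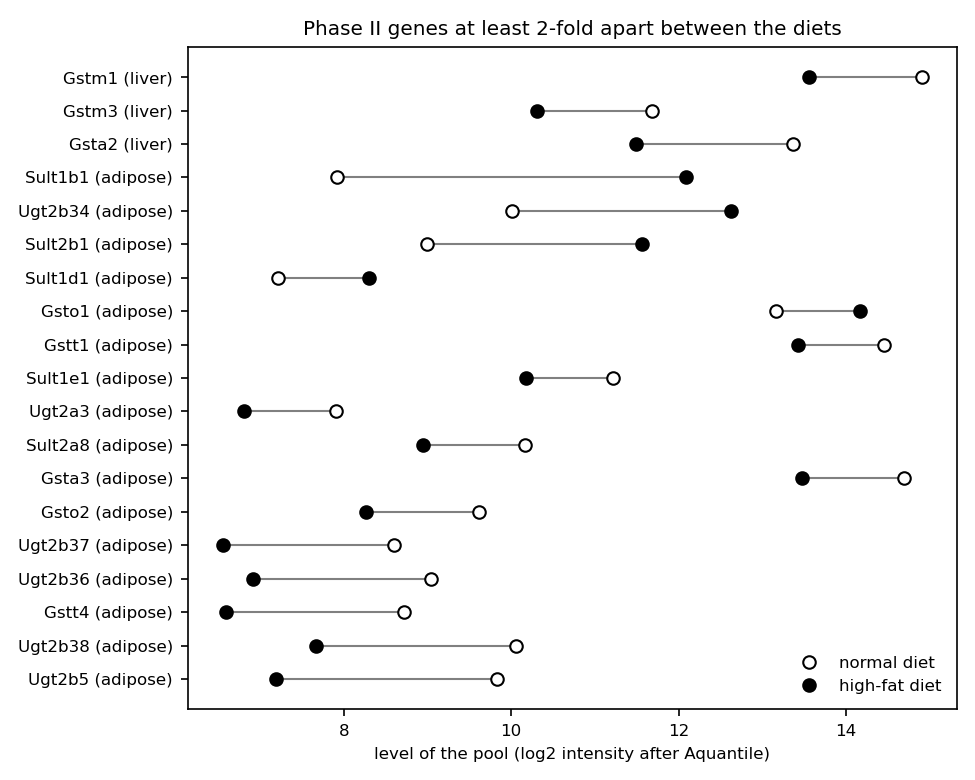
Levels (log2 intensity) of the normal-diet pool (open circles) and the high-fat pool (filled circles) for the 19 gene and tissue pairs at least 2-fold apart, 1 array per tissue with no replicates. Sult1b1 on the adipose array moves the farthest to the right (7.91 to 12.08) and Ugt2b5 the farthest to the left (9.83 to 7.19).

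Among the Gst genes of fat, Gsto1 had 13.17 in the ND pool and 14.17 in the HFD pool, a ratio of 1.01 (2.01-fold higher, scanner error 0.22), at the edge of the rule. Its paralog Gsto2 went the other way, from 9.62 to 8.27, a ratio of -1.35 (2.54-fold lower). Gstt4, a theta-class gene, went from 8.72 to 6.59 (-2.13, 4.38-fold lower, scanner error 0.36). Its HFD level was near the lowest level of a probe above background in that channel (5.66), and its ratio was -3.11 in the scanner software's own log ratio. Gsta3 went from 14.69 to 13.47 (-1.22, 2.32-fold lower), with probes at -1.06 and -1.37. Gstt1 went from 14.45 to 13.43 (-1.02, 2.03-fold lower). With median centring Gstt4 stayed past the rule at -1.74, while Gsto2 (-0.58), Gsta3 (-0.08) and Gstt1 (0.11) did not.

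The 3 Gst genes that were at least 2-fold lower in liver were under 2-fold in fat, a difference that was not tested. The adipose ratio was -0.40 for Gsta2, -0.39 for Gstm1 and 0.05 for Gstm3, whose probes disagreed (-0.34 and 0.43). The other mu-class genes ran from -0.51 for Gstm2 to 0.07 for Gstm7. Gsta4 was at -0.68, Gstt2 at -0.66 and Gstt3 at -0.38. The ratio was -0.55 for Gstp2, -0.43 for Gstp1, -0.30 for Gstk1 and -0.18 for Gstz1. Gstp3 was above background in the HFD channel only, 1.22-fold higher with the dim ND level as read, within 1 scanner error. The median of the 20 measured Gst genes, -0.40, turned to 0.57 with median centring, where the median of all genes was 0.69. The 4 theta-class genes had a median of -0.84, or 0.21 with median centring.

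**Figure D3:**
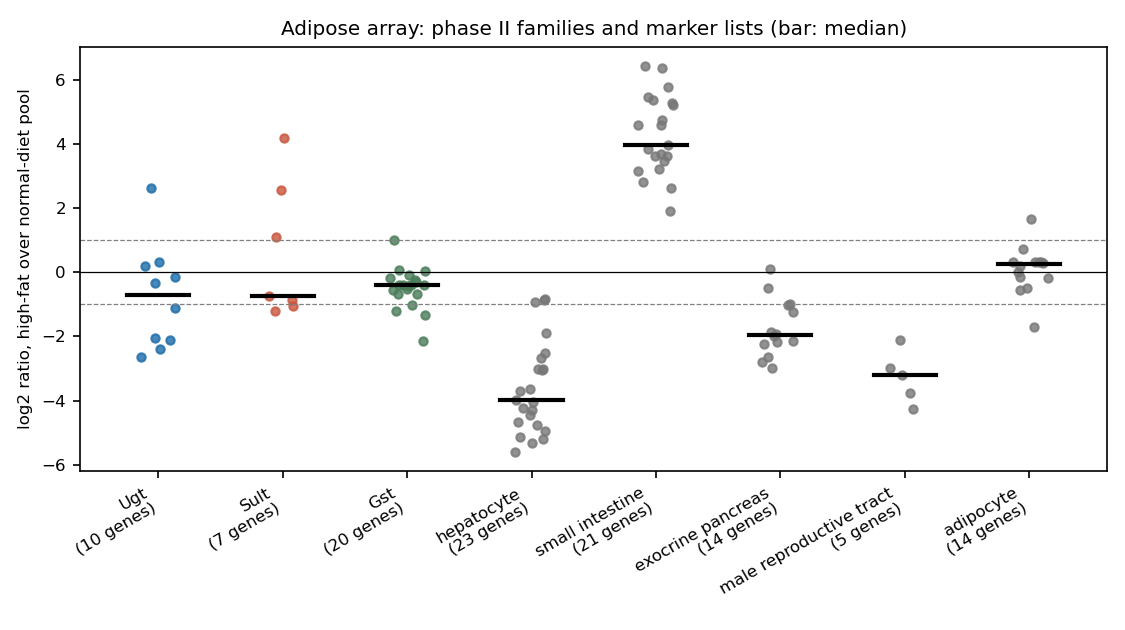
Log2 ratio of the high-fat over the normal-diet pool on the adipose array for the measured genes of the 3 phase II families (colours) and of 5 lists of tissue markers (grey), with medians as bars. Hepatocyte markers have a median of -3.98 and small intestine markers of 3.96, and the family medians lie between (-0.72 for Ugt, -0.75 for Sult, -0.40 for Gst; with median centring -0.86, 0.26 and 0.57, signs turned for Sult and Gst; for Sult also 0.54 with genes above background in 1 channel added).

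The Ugt2 and Sult1 genes of chromosome 5 form one row of neighbours in which both directions occurred. In order they are Ugt2b34, Ugt2b1, Ugt2b35, Ugt2b36, Ugt2b5, Ugt2b37, Ugt2a3, Ugt2b38, Ugt2a1, Sult1b1, Sult1d1 and Sult1e1. On the adipose array Ugt2b34 at one end was at 2.61 and Sult1b1 and Sult1d1 toward the other were at 4.17 and 1.09, while the run from Ugt2b36 to Ugt2b38 lay between -2.64 and -1.10. Sult1e1, next to Sult1d1, was at -1.04. On the liver array the same 12 genes lay between -0.60 and 0.73.

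**Figure D4:**
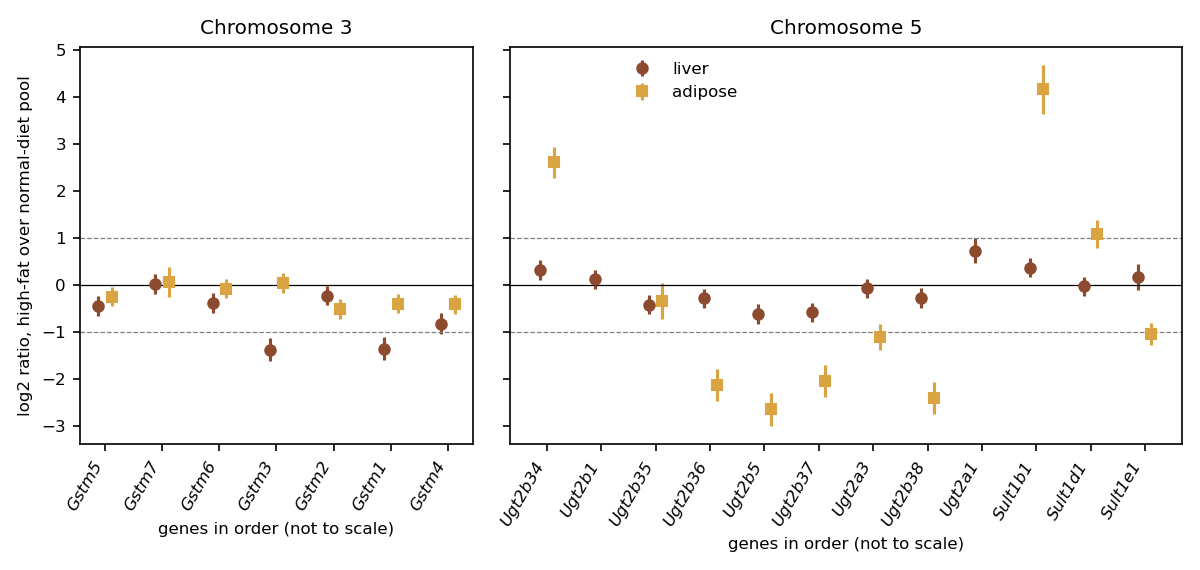
Log2 ratio of the high-fat over the normal-diet pool (bars, scanner error) for the mu-class genes of chromosome 3 and the Ugt2 and Sult1 genes of chromosome 5, in the order of the reference annotation, for liver (circles) and adipose tissue (squares). Neighbours differ: Gstm2 at -0.22 lies between Gstm3 (-1.37) and Gstm1 (-1.35) in liver, and Ugt2b34 (2.61) and Sult1b1 (4.17) flank genes as low as -2.64 in fat.

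The upstream sequences of the Ugt2b genes were compared because 4 of them were lower together in fat while Ugt2b34 was higher. The 250 bases before each start follow (RefSeq, GRCm38.p6, 5′ to 3′), with capitals for a run of 62 bases that is identical in Ugt2b5, Ugt2b37 and Ugt2b38.
Ugt2b5, chr5:87140341-87140590, minus strand: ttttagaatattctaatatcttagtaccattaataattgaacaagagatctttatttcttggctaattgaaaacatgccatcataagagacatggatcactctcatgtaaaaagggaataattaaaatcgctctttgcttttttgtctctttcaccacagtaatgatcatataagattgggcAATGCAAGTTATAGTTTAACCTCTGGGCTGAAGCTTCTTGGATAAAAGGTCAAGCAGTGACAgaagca
Ugt2b37, chr5:87254789-87255038, minus strand: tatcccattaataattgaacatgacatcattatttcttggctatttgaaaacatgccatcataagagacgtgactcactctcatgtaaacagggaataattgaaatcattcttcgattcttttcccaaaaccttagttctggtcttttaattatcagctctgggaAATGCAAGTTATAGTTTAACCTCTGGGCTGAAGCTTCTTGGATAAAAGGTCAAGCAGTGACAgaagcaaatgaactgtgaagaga
Ugt2b38, chr5:87424204-87424453, minus strand: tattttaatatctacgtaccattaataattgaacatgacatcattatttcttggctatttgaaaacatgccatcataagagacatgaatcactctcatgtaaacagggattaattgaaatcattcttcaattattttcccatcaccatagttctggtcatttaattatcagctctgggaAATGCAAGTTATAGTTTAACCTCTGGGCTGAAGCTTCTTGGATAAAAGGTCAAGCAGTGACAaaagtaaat
Ugt2b36, chr5:87092556-87092805, minus strand: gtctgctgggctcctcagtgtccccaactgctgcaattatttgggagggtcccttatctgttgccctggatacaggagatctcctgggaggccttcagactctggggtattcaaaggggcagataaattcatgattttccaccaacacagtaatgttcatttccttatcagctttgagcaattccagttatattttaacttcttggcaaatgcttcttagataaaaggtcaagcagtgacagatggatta
Ugt2b34, chr5:86906938-86907187, minus strand: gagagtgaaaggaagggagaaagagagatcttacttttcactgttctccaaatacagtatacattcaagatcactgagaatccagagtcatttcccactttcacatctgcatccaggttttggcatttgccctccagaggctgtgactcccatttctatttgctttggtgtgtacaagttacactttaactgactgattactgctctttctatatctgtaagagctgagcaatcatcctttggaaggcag
Aligned end to end, Ugt2b37 and Ugt2b38 were identical in 85.2% of columns, Ugt2b5 and Ugt2b38 in 81.5%, and Ugt2b5 and Ugt2b37 in 73.0%. Ugt2b36 was identical to these 3 in 58.3% to 60.4%, and Ugt2b34 to the 4 lower genes in 50.2% to 54.0%. Ugt2b35, at -0.33 in fat, was identical to Ugt2b5, Ugt2b37 and Ugt2b38 in 57.4% to 58.9%, near the values of Ugt2b36, and Ugt2b1 to these 3 in 52.1% to 52.8%. By the longest identical run the genes differed. With Ugt2b5, Ugt2b37 and Ugt2b38, Ugt2b36 shared runs of 24, 24 and 22 bases, which overlap the end of the capitalised run. Ugt2b35 shared runs of 9, 10 and 10 bases with them. The mu-class promoters, by comparison, were identical in 43.5% to 58.1%, the highest value being that of Gstm1 and Gstm3. Promoters of unrelated genes were not aligned, so these shares have no background value beside them. Whether likeness upstream bears on the ratios was not tested. In liver Ugt2b5, Ugt2b37 and Ugt2b38 were at -0.60, -0.58 and -0.27, against 0.32 for Ugt2b34. Whether the probes of these close relatives share signal was not tested.

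Levels of a gene were compared between the arrays with the same probes, on the ND channel, which takes the 2 arrays to have the same overall distribution of brightness. Tissue, array and scan cannot be told apart. Of 37 genes with a level on both, 28 (75.7%) were at least 2-fold brighter in liver, beside 16.6% of all genes, and the median difference was 1.83 against 0.06. For the 12 Ugt genes the median was 5.27, with 11 at least 2-fold brighter in liver. The largest were Ugt2b38 (15.76 in liver and 10.06 in fat, a difference of 5.70), Ugt2b36 (5.68) and Ugt2a3 (5.65). At least 2-fold brighter in fat were 4 of these 37 genes (10.8%), beside 18.2% of all genes. Sult1e1 had 7.04 in liver and 11.22 in fat (-4.18), Gsto2 had 6.75 and 9.62 (-2.87), Gstm2 had 10.85 and 13.05 (-2.20), and Gstm5 was at -1.58. Their ratios on the adipose array ran from -1.35 to -0.24, where 28 of the 37 measured members were below 0, and the ND level of fat enters both the tissue difference and the ratio.

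The 4 Ugt2b genes that were lower in the HFD pool of fat were also far brighter in liver, and so were most hepatocyte markers (22 of 23 brighter in liver on ND, with Cyp2e1 the exception). In the ND pools the 4 Ugt2b genes had a median difference, fat minus liver, of -5.59, and in the HFD pools of -7.47. These 4 were picked for a lower ratio in fat, and their liver ratios lay between -0.60 and -0.27. The wider difference on HFD therefore follows from the choice and adds nothing to it. For 23 hepatocyte markers these differences were -4.52 and -8.40. Genes brighter in liver were not all lower in the HFD pool of fat: Sult1b1 (3.45 brighter in liver on ND) and Ugt2b34 (4.31) were higher there. With HFD the difference between tissues was -0.35 for Sult1b1 and 2.01 for Ugt2b34, which follows from their higher ratio in fat. Ugt2b35, 5.19 brighter in liver, was at -0.33 in fat (scanner error 0.38). Its levels there were 6.71 (ND) and 6.37 (HFD), where the lowest levels of a probe above background were 6.26 and 5.66.

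**Figure D5:**
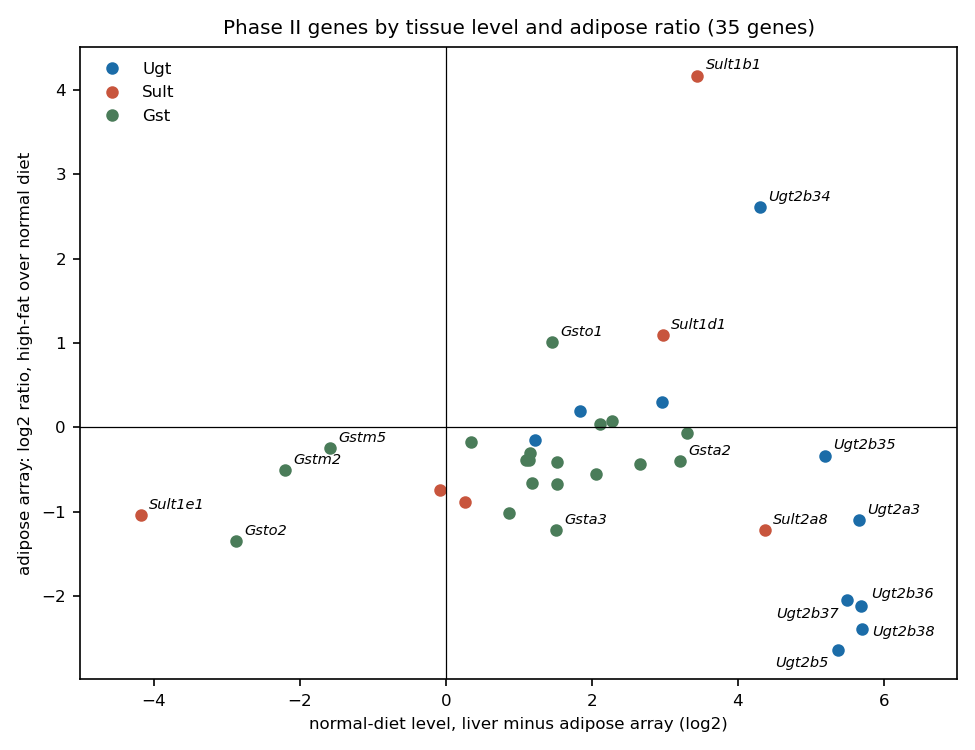
Adipose log2 ratio (high-fat over normal diet) against the normal-diet level on the liver array minus that on the adipose array (log2), for the 35 genes measured on both arrays in these channels; both axes use the normal-diet pool of fat. The 4 lower Ugt2b genes lie at the lower right, Sult1b1 (3.45 and 4.17) and Ugt2b34 (4.31 and 2.61) at the upper right, and Sult1e1 (-4.18 and -1.04) at the far left.

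The supply and control genes of fat are read against the shares over the whole array, 4.23% for at least 2-fold higher and 5.13% for lower. In cofactor supply (median 0.30) 1 of 15 was higher, Ggt1 (7.28 to 9.92, 2.64), which starts the breakdown of glutathione conjugates. The next were Bpnt1 (0.52), which clears the product left by PAPS, and at the low end Gpx1 (-0.25) and Ugp2 (-0.18), which makes UDP-glucose. Of 17 other conjugating enzymes (median -0.15), 2 were higher and 3 lower. Nat8, which acetylates cysteine conjugates, was at 2.96 and Mgst2 at 1.08. Slc27a5, which activates bile acids for conjugation, was at -4.24, and the methyltransferases Gnmt and Inmt at -3.10 and -1.71.

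Of 13 regulators in fat, 4 were higher, among them Hnf4a (1.90), the bile acid receptor Nr1h4 (1.54) and Nr1i2 (1.12). The lowest were Nr1i3 (-0.95) and Cebpa (-0.85), and the median was -0.06. Of 13 NRF2 targets (median 0.37), 2 were higher, Gpx2 (10.16 to 13.61, 3.46) and Srxn1 (1.23), and the lowest was Cbr3 at -0.77, a carbonyl reductase. Slc27a5 and Gnmt lay with the hepatocyte markers, and Ggt1, Nat8 and Gpx2 with the small intestine markers, in direction. Whether they share a source with them was not tested.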

How the data were processed

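RNA pools of both diets were measured on 1 two-channel Agilent array per tissue. Per the file headers, the deposited files hold median spot and local background intensity without normalization, and the deposited log10 ratio of red over green with its error, after the software's background subtraction and dye normalization. Per the labels, Cy3 marks ND and Cy5 HFD. The headers name Feature Extraction 11.5.1.1, while the submitters' processing notes name 8.5.1.1.

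Ratios were background-corrected by normexp with offset 50 and normalized by loess (limma 3.58.1, R 4.3.3), after each local background that the software marks as an outlier had been set to its channel's median on that array. Levels of a channel used Aquantile. Spots of a probe, then probes of a gene, were averaged on log2 in Python 3.11.15. A probe was on in a channel where most of its spots not marked as outliers were well above background. With 1 channel on, the value given is the bright level over the higher of the dim level and the lowest level on. For all 5 such members in fat the dim level was the higher, so the value is a plain ratio and not a lower limit. Of 39429 probes, 27508 matched 1 gene through their accession. No spot was saturated. The median spot signal was 87.5 (ND) and 117 (HFD) in liver and 92 and 247 in fat, over backgrounds of 28 and 48 and of 28 and 52.5, and the number of arrays limits the precision. The background correction and loess were tested on a simulated array built from the liver intensities. No array like that of fat was simulated.

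Named are members past 2-fold on either array, the extremes of each subfamily, the 3 largest tissue differences each way, and list genes past 2-fold or among the 2 largest ratios each way. Other members are described beyond that rule, and 1 list gene that the rule takes is not reported here. Members, lists and rules were chosen with earlier results of these data known. No p-value was computed. The alternatives changed the background (none subtracted, an offset of 10, all local values as deposited), the normalization (the software's own ratio, median centring, a running median by brightness), the filter (2 looser ones, or a ratio over 2 scanner errors) and the gene summary (brightest probe, or probes counted singly, the latter chosen after seeing the data).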

Additional observations from a re-analysis of the deposited data

Results flagged for a closer look

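For 3 genes the ratio lay on opposite sides of 0 on the 2 arrays, by more than 2 scanner errors on each. The liver ratio minus the adipose ratio was -1.47 for Gsto1, 1.91 for Sult2a8 and 1.64 for Sult5a1. With median centring the liver ratio of Gsto1 was 0.20 and the adipose ratio of Sult5a1 was 0.02, so that the signs were opposite for Sult2a8 alone. With 1 array per tissue these differences were not tested.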

How the results depend on the processing

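Median centring in place of loess put the median of all genes at 0.32 in liver and 0.69 in fat and made 94.1% (445 higher, 28 lower) and 87.2% (4208 and 616) of the 2-fold genes higher, against 45.9% and 45.1%. In liver it gave 3 members higher (Sult2a8, Sult5a1, Gstz1), 1 lower (Gsta2) and a median of 0.36, and Gstm1 and Gstm3 were at -0.70 and -0.93. In fat it gave 7 higher, 5 lower and a median of 0.32, which relative to all genes is -0.37, and the ratio of Gstt1 turned to 0.11. Otherwise 2 members (Ugt2a1, Sult5a1) were higher in liver in the software's log ratio and 1 (Ugt2a1) with an offset of 10. Counting probes gave 6 lower in liver. With all backgrounds as deposited Gstm3 was at -0.92 in liver, which left 2 lower. Elsewhere the counts of members stayed within 1.5 times those reported.

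No paired analysis was possible because each diet was 1 pool on 1 array per tissue. Genes not well above background in either channel (12 in liver, 11 in fat) gave no ratio, and levels near background rest on the correction used.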
